A study of Caenorhabditis elegans with 24 samples.

Results

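The transcripts described here belong to 9 genes that give the intestine of Caenorhabditis elegans its identity and build its lumen. They are the transcription factor genes elt-2 and elt-7, the lumen enzyme genes ges-1 and pho-1, the calcium channel gene itr-1, the filament gene ifb-2, the actin gene act-5, the peptide transporter gene pept-1 and the proton pump gene vha-6. They were chosen by name, with earlier results of these data known, and every probe set annotated to 1 of these genes was taken. They make up 9 of 17118 genes and 14 of 22548 probe sets on the array. Because of that choice, shares of all genes set beside counts of these genes describe the data and are not a test. All 9 were measured. There were 2 probe sets for elt-2, 2 for pho-1, 4 for itr-1 and 1 for each of the others, and 0 probe sets that name several genes name any of them.

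The nematode intestine is a tube of epithelial cells around a lumen lined with microvilli, and it digests bacteria, takes up nutrients, stores fat and makes yolk. ELT-2 is a GATA-type transcription factor that binds GATA sequences in the promoters of most intestinal genes and keeps them active from the embryo through adult life, and ELT-7 overlaps with it in function. The lumen side of each cell carries a brush border held by a sheath of intermediate filaments, its surface is acidified by a proton pump, and waves of calcium released inside the cells drive the rhythmic defecation of the animal.

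Whole young adults of 3 strains were compared, wild-type N2, the strain RB864, which carries a deletion in xpa-1 and had been outcrossed 3 times, and the strain JK1107, which carries a point mutation in glp-1. All were grown at 25°C to an age of 24 h past the vulval crescent. The gene xpa-1 encodes a nucleotide excision repair factor. The Notch receptor encoded by glp-1 keeps germ line stem cells dividing, and animals without it have little germ line. Each strain was left untreated or received 50 J/m2 of UVC (emission peak 254 nm) and was frozen 3 h later, and untreated animals went through the same handling without the dose. Each of the 6 groups had 4 arrays, 2 from 2007 and 2 from 2008. No label states that replicates were separate cultures, so the p-values reflect only how far these samples scatter, and that scatter may be technical.

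The years differed in RNA input, labelling kit and brightness. In 2007 the RNA input was 500 pg and the median deposited intensity of an array lay between 4.24 and 8.42, and in 2008 the input was 100 ng and the median lay between 68.9 and 190.5. Replicate arrays of a group correlated across probe sets at a Spearman coefficient of 0.757 to 0.882 in 2007 and 0.953 to 0.977 in 2008. Levels are therefore given as log2(intensity + 32) after quantile normalisation of all 24 arrays, with a lowest possible value of 5.00, and the year is a term of every fit. A fold is a ratio on that scale and understates the change of a dim gene. Each targeted transcript was low in the strain labelled with its mutation. The xpa-1 level was 9.55 ± 0.41 (SD, n = 4) in untreated N2 and 5.71 ± 0.59 in untreated xpa-1 animals. It was also lower than in N2 in untreated glp-1 animals, at 6.84 ± 0.34, so a low xpa-1 level does not by itself identify the xpa-1 strain. The glp-1 level was 10.53 ± 0.09 in untreated N2, 10.60 ± 0.14 in untreated xpa-1 and 5.64 ± 0.85 in untreated glp-1 animals. A point mutation, however, leaves the probe target in place. Where the xpa-1 probes lie in relation to the deletion was not given in the sources used here. In whole animals, fewer cells of a type and less RNA per cell cannot be told apart.

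**Figure D1:**
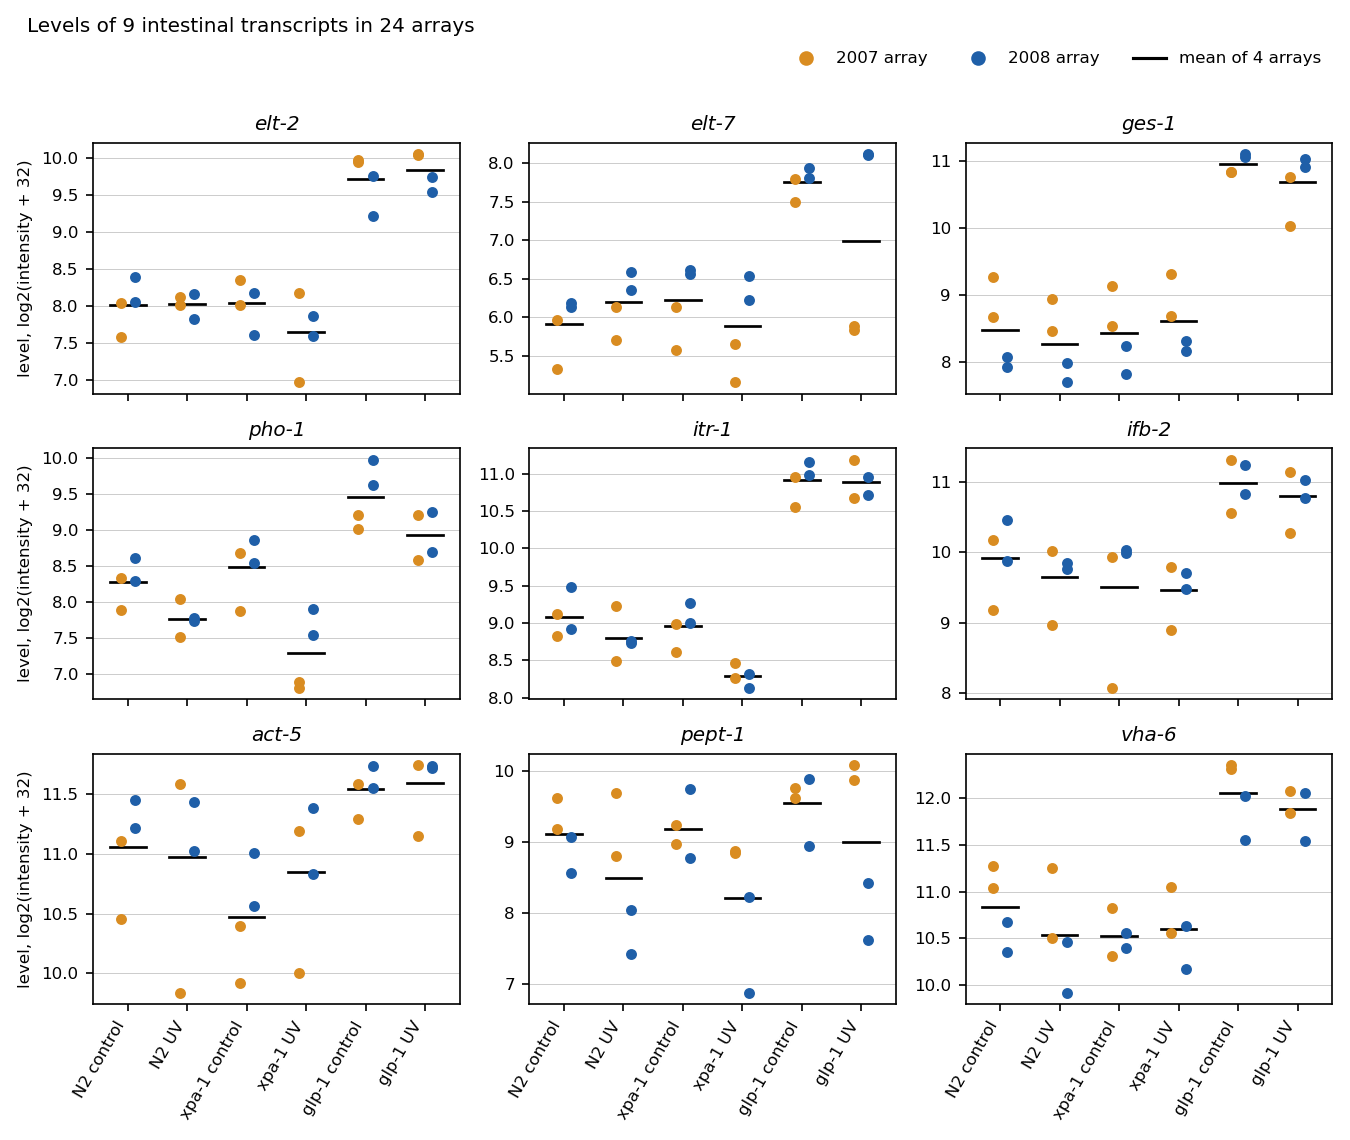
Level of each of the 9 intestinal transcripts, as log2(intensity + 32) after quantile normalisation, in 24 arrays. Points are single arrays coloured by year, short lines are means of 4 arrays, and the vertical axes differ between panels. The glp-1 arrays stand above the N2 and xpa-1 arrays for ges-1, itr-1 and elt-2, whereas pept-1 spreads from 6.87 to 10.08 across all groups.

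The strain with little germ line held the highest levels. For 8 of the 9 genes both glp-1 groups ranked above all 4 groups of N2 and xpa-1 animals by mean level, as the plot of levels in all arrays shows. The exception was pept-1, for which untreated glp-1 animals ranked first at 9.55. Irradiated glp-1 animals, at 8.998, came below untreated xpa-1 (9.18) and untreated N2 animals (9.10). For elt-2 the order of mean levels was 9.84 in irradiated glp-1, 9.71 in untreated glp-1, 8.04 in untreated xpa-1, 8.03 in irradiated N2, 8.02 in untreated N2 and 7.65 in irradiated xpa-1 animals. Of the steps in this order that were tested, those between glp-1 and the other strains passed. For itr-1 the order was 10.91 in untreated glp-1, 10.88 in irradiated glp-1, 9.09 in untreated N2, 8.96 in untreated xpa-1, 8.80 in irradiated N2 and 8.29 in irradiated xpa-1 animals. None of the 9 genes passed the test between N2 and xpa-1 animals or between irradiated and untreated animals of a strain.

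In untreated animals, the comparison of glp-1 with N2 asks which intestinal transcripts differ when most of the germ line is missing. Of the 9 genes, 7 were higher in glp-1 (limma, call limit 0.05 for p adjusted over the whole array) and 0 were lower. Of all 17118 genes, 21.1% were called higher in the same comparison. All 4 glp-1 arrays stood above all 4 N2 arrays for 7 genes, against 16.3% of all genes. The median difference of the 9 genes was 1.22 on the log2 scale, against 0.07 for all genes, and all 9 differences were above 0 in both years. On the values as deposited, without normalisation, elt-2 (0.71, adjusted p = 0.0646), pho-1 (0.36, adjusted p = 0.189) and ifb-2 (0.77, adjusted p = 0.162) lost their calls, and 4 genes were called. The pept-1 difference, not called in either case, was then -0.30.

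Both GATA factors rose. The elt-2 level in N2 was 8.05 and 7.59 in 2007 and 8.39 and 8.05 in 2008, and in glp-1 it was 9.97 and 9.94 in 2007 and 9.21 and 9.75 in 2008. No glp-1 array reached down to the N2 range. The difference was 1.69 (SE 0.24, limma adjusted p = 9.3e-06), a 3.24-fold higher level, and it was 2.14 in 2007 and 1.25 in 2008. The second elt-2 probe set differed by 1.98 (SE 0.49, limma adjusted p = 0.0028). The elt-7 level was lower and closer to the limit of the scale. In N2 it was 5.33 and 5.96 in 2007 and 6.19 and 6.14 in 2008, and in glp-1 7.80 and 7.49 in 2007 and 7.80 and 7.93 in 2008. The groups did not overlap and differed by 1.85 (SE 0.30, limma adjusted p = 5.2e-05). The deposited elt-7 intensities of 2007 reached only 11.5 in any of that year's 12 arrays, so the 2007 difference of 2.00 rests on a few intensity units, and that of 2008 was 1.70.

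The lumen enzymes ges-1 and pho-1 rose as well. The gut esterase gene ges-1, a classical marker of the intestine, had the largest difference of the 9. Its level in N2 was 9.27 and 8.68 in 2007 and 8.07 and 7.93 in 2008, against 10.83 and 10.84 in 2007 and 11.10 and 11.06 in 2008 in glp-1. The 4 glp-1 arrays lay within a narrow band, and the N2 arrays were lower in 2008 than in 2007. The difference was 2.47 (SE 0.30, limma adjusted p = 1.7e-06), a 5.54-fold higher level, with 1.86 in 2007 and 3.08 in 2008. Before any normalisation, the 2008 intensities were 468 and 536 in N2 and 3156 and 3436 in glp-1. The intestinal acid phosphatase gene pho-1 was at 8.34 and 7.89 in 2007 and 8.29 and 8.62 in 2008 in N2, and at 9.21 and 9.02 in 2007 and 9.98 and 9.62 in 2008 in glp-1. Its groups did not overlap either. It was higher by 1.17 (SE 0.23, limma adjusted p = 0.00034), with 0.9996 in 2007 and 1.35 in 2008, and its second probe set was higher by 1.25 (SE 0.39, limma adjusted p = 0.0155).

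The gene itr-1 encodes the inositol trisphosphate receptor, the channel that releases calcium from internal stores and paces defecation, and it also acts in other tissues. Its brightest probe set read 9.12 and 8.83 in 2007 and 9.48 and 8.92 in 2008 in N2, against 10.95 and 10.55 in 2007 and 11.16 and 10.98 in 2008 in glp-1. The difference of 1.82 (SE 0.19, limma adjusted p = 1.8e-07) was nearly the same in 2007 (1.78) and 2008 (1.87), and it had the smallest standard error of the 9. The other 3 probe sets of itr-1 were dimmer and did not all follow. A probe set at 6.25 in N2 was higher in glp-1 by 1.68 (SE 0.57, limma adjusted p = 0.0259). One at 5.90 in N2 differed by 1.03 (SE 0.50, adjusted p = 0.122), and the dimmest, at 5.27 in N2 and 5.19 in glp-1, lay near the lowest possible value and differed by -0.08 (adjusted p = 0.841).

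Among the genes of the brush border, vha-6 and ifb-2 rose and act-5 and pept-1 did not pass the test. The proton pump subunit gene vha-6, whose product sits in the lumen membrane of the intestine, was at 11.28 and 11.04 in 2007 and 10.36 and 10.68 in 2008 in N2, and at 12.31 and 12.36 in 2007 and 11.55 and 12.02 in 2008 in glp-1. Its difference was 1.22 (SE 0.21, limma adjusted p = 9.2e-05), with 1.18 in 2007 and 1.27 in 2008. The intermediate filament gene ifb-2 read 10.18 and 9.18 in 2007 and 10.46 and 9.88 in 2008 in N2, and 10.56 and 11.32 in 2007 and 11.25 and 10.82 in 2008 in glp-1. The lowest glp-1 array stood just above the highest N2 array. The difference of 1.06 (SE 0.36, limma adjusted p = 0.0242) was 1.26 in 2007 and 0.87 in 2008, and the call was lost when any of 4 arrays was left out, with adjusted p = 0.0860 without glp-1 untreated 2007-2, 0.0513 without glp-1 untreated 2008-1, 0.0925 without N2 untreated 2007-2 and 0.0667 without N2 untreated 2008-2.

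The actin of the microvilli, act-5, read 11.11 and 10.45 in 2007 and 11.46 and 11.21 in 2008 in N2, and 11.30 and 11.58 in 2007 and 11.74 and 11.56 in 2008 in glp-1. The groups overlapped. The difference was 0.49 (SE 0.30, limma adjusted p = 0.240), with a 95% interval of -0.15 to 1.12. Actins have similar sequences, and the 2 other actin genes measured by a probe set of their own, act-3 and act-4, differed by -0.25 and -0.03 (limma adjusted p = 0.230 and 0.907). The transporter pept-1, which takes up di- and tripeptides together with protons, read 9.61 and 9.18 in 2007 and 9.07 and 8.55 in 2008 in N2, and 9.76 and 9.62 in 2007 and 9.88 and 8.94 in 2008 in glp-1. It differed by 0.45 (SE 0.41, limma adjusted p = 0.454), and its 95% interval of -0.42 to 1.31 is wide enough to hold both 0 and the difference seen for vha-6.

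**Figure D2:**
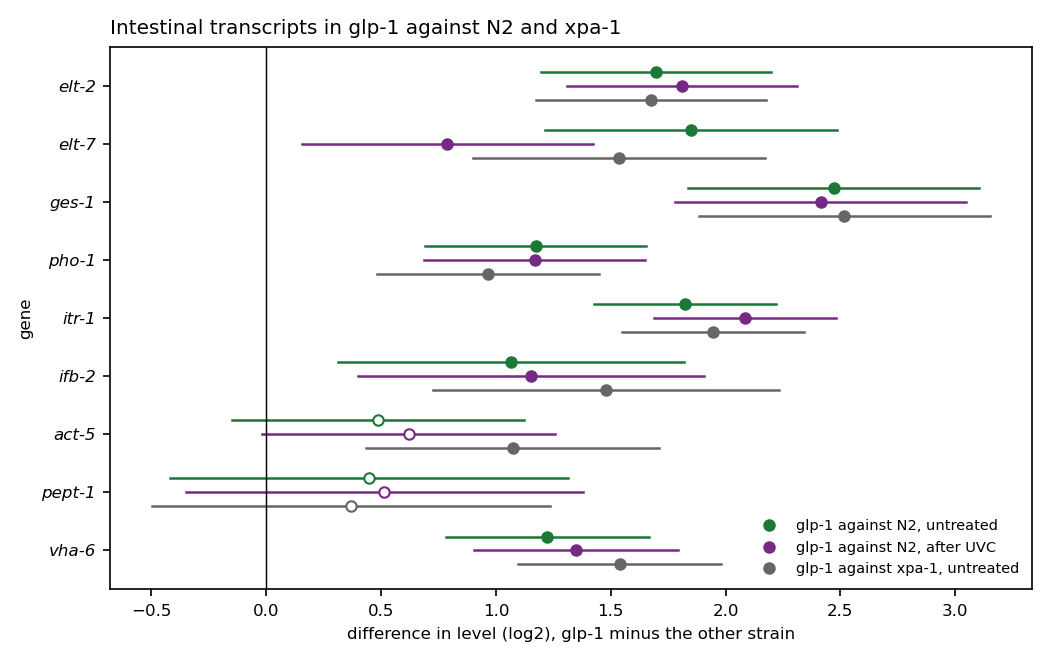
Difference in level (log2, glp-1 minus the other strain) of the 9 intestinal transcripts in 3 comparisons of 4 against 4 arrays, with 95% intervals. Filled points have a limma adjusted p under 0.05 and open points do not. The difference of ges-1 lies between 2.41 and 2.52 and that of pept-1 between 0.37 and 0.51.

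The same strains were compared on irradiated animals, with arrays that the untreated comparison did not use. After UVC 7 of the 9 genes were higher in glp-1 than in N2 (limma), against 21.9% of all genes called higher, and the groups did not overlap for 6, against 15.4% of all genes. The differences were 1.81 for elt-2, 2.41 for ges-1, 1.17 for pho-1, 2.08 for itr-1, 1.15 for ifb-2 and 1.35 for vha-6, with limma adjusted p between 2.9e-08 for itr-1 and 0.0143 for ifb-2. The itr-1 value is from its brightest probe set. On the dimmer ones the groups overlapped and differed by 1.05, 1.32 and 0.12 (limma adjusted p = 0.160, 0.0436 and 0.697). As in untreated animals, act-5 (0.62, SE 0.30, adjusted p = 0.118) and pept-1 (0.51, SE 0.41, adjusted p = 0.359) did not pass. On the values as deposited, elt-2 (0.59), elt-7 (0.48), pho-1 (0.09), ifb-2 (0.22) and vha-6 (0.71) lost their calls in this comparison, with adjusted p between 0.118 for elt-2 and 0.775 for pho-1, and 2 genes were called. The uncalled differences of act-5 and pept-1 were then -0.06 and -0.68. The plot of glp-1 differences shows the 3 estimates for each gene side by side. The ifb-2 call was lost without glp-1 UVC 2007-2 (0.97, adjusted p = 0.0543) or without N2 UVC 2007-2 (0.98, adjusted p = 0.0558). The act-5 difference depended on the same group. It was 0.92 (adjusted p = 0.0167) without N2 UVC 2007-1, which held that group's highest act-5 level, 11.59, and 0.30 without N2 UVC 2007-2, which held its lowest, 9.83.

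The elt-7 transcript behaved differently in the 2 years after UVC. In irradiated glp-1 animals it was at 5.88 and 5.83 in 2007 and 8.11 and 8.11 in 2008, while in irradiated N2 animals it was at 6.13 and 5.70 in 2007 and 6.36 and 6.59 in 2008. The 2007 arrays of both strains overlapped and the 2008 arrays lay far apart. The difference over both years was 0.79 (SE 0.30, limma adjusted p = 0.0450), made up of -0.06 in 2007 and 1.64 in 2008. This call was lost on leaving out any of 13 of the 24 arrays, with adjusted p between 0.0503 and 0.179. These were glp-1 UVC 2008-1 and 2008-2, N2 UVC 2007-2, 2008-1 and 2008-2, N2 untreated 2007-1, 2008-1 and 2008-2, xpa-1 untreated 2008-1 and 2008-2, and xpa-1 UVC 2007-1, 2008-1 and 2008-2. The call was also lost with a replicate block (adjusted p = 0.0605), with no year term (0.217) and with only the groups compared in the fit (0.147). Limma's trend and robust options (0.0797), log2(value + 1) (0.180) and the values as deposited (0.121) ended it as well. The deposited 2007 intensities behind it were 2.44 and 2.01 in glp-1 and 5.78 and 2.96 in N2.

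Against untreated xpa-1 animals, which carry a germ line, untreated glp-1 animals were higher for 8 of the 9 genes (limma), against 21.5% of all genes called higher. This comparison shares its glp-1 arrays with the first. The differences were 1.68 for elt-2, 1.54 for elt-7, 2.52 for ges-1, 0.97 for pho-1, 1.95 for itr-1, 1.48 for ifb-2 and 1.54 for vha-6. On the dimmer itr-1 probe sets the groups overlapped and differed by 1.72, 1.52 and 0.19 (limma adjusted p = 0.0222, 0.0216 and 0.527). Among the 9 genes, the added call was act-5, higher by 1.07 (SE 0.30, limma adjusted p = 0.0080), with 1.29 in 2007 and 0.86 in 2008. With the 2007 arrays alone act-5 was not called (limma adjusted p = 0.211). Its untreated xpa-1 levels were 9.91 and 10.39 in 2007 and 10.57 and 11.01 in 2008, and the difference between untreated xpa-1 and N2 animals was -0.59 (SE 0.30, unadjusted p = 0.0695, limma adjusted p = 1.0). Again pept-1 did not pass (0.37, SE 0.41, adjusted p = 0.544), and its difference ran from 0.09 without glp-1 untreated 2008-1 to 0.73 without xpa-1 untreated 2008-1. On the values as deposited the pept-1 difference was -0.08. There elt-7 (0.46, limma adjusted p = 0.151) and pho-1 (0.40, limma adjusted p = 0.151) lost their calls.

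**Figure D3:**
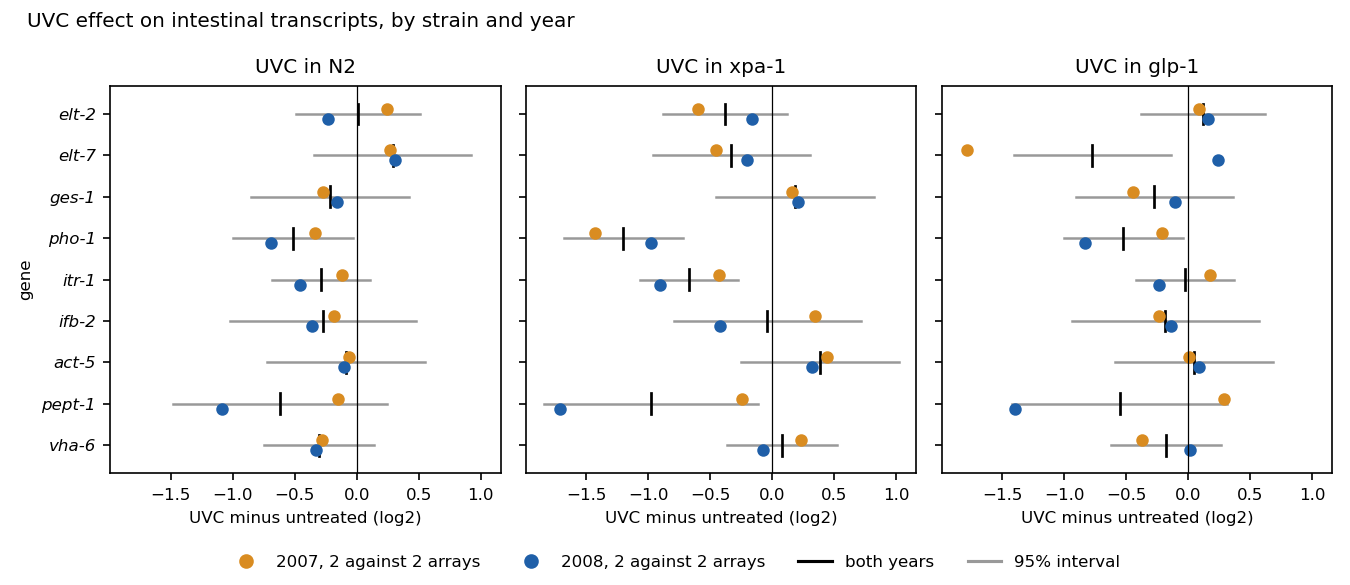
UVC effect (log2, irradiated minus untreated) on the 9 intestinal transcripts in N2, xpa-1 and glp-1 animals. Points are the 2007 and 2008 effects, each from 2 against 2 arrays, black lines the estimate over both years and grey lines its 95% interval. For pho-1 all 6 points lie below 0, between -1.43 and -0.21, and for pept-1 the 2008 points lie between -1.71 and -1.09.

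The comparison of irradiated with untreated animals asks how intestinal transcripts respond 3 h after UVC. None of the 9 genes passed the test in any strain (limma, 0 of 9 in N2, 0 of 9 in xpa-1 and 0 of 9 in glp-1). The share of all genes called was 0% in N2, 0.0409% in xpa-1 and 0% in glp-1. At an unadjusted p under 0.05, 1 of the 9 passed in N2, 3 in xpa-1 and 2 in glp-1, against 2.74%, 6.11% and 7.22% of all genes. The median effect over the 9 genes was -0.27 in N2, -0.33 in xpa-1 and -0.18 in glp-1, against 0.00 for all genes in each strain. Their sign depended on the scaling. The values as deposited gave 0.06, 0.07 and -0.45, against 0.08, 0.15 and -0.02 for all genes. Median centring gave 0.04, -0.02 and -0.48, against 0.06, 0.06 and -0.05 for all genes. Under both scalings the median of the 9 genes lay below that of all genes in each strain, though only slightly in N2. With the same test and group sizes on simulated data, 48% of changes of 1 on the log2 scale and 84% of changes of 2 were called for N2 animals. The simulated data held 50 changed probe sets of each size among 22548. The adjustment is stricter where fewer probe sets change, and 0 were called for UVC in N2. These shares may therefore overstate what could be found in the measured data.

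The acid phosphatase gene pho-1 had the smallest p of the 9 after UVC. In xpa-1 animals it was at 8.69 and 7.88 in 2007 and 8.55 and 8.86 in 2008 when untreated, and at 6.82 and 6.89 in 2007 and 7.91 and 7.54 in 2008 after UVC. Only the highest irradiated array overlapped with the lowest untreated one. The difference was -1.20 (SE 0.23, limma adjusted p = 0.0746), with -1.43 in 2007 and -0.98 in 2008, and without glp-1 UVC 2007-1, an array outside this pair of groups, the adjusted p was 0.0447. A replicate block (adjusted p = 0.0480) and array weights (-0.99, adjusted p = 0.0063) also called it. The second pho-1 probe set did not follow, with 0.10 in xpa-1 (SE 0.39, adjusted p = 1.0), made up of 1.08 in 2007 and -0.88 in 2008. In N2 pho-1 moved from 8.34, 7.89, 8.29 and 8.62 to 8.05, 7.51, 7.74 and 7.78, a difference of -0.52 (SE 0.23, limma adjusted p = 1.0). In glp-1 it moved from 9.21, 9.02, 9.98 and 9.62 to 9.22, 8.59, 9.25 and 8.69, a difference of -0.52 (SE 0.23, limma adjusted p = 0.644). The pho-1 difference was below 0 in 6 of 6 combinations of strain and year.

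Averaged over the 3 strains, a comparison added after the data were seen, the UVC effect on pho-1 was -0.75 (SE 0.13, limma adjusted p = 0.0553), and 0 of the 9 genes were called against 0.0175% of all genes, while 3 of 9 had an unadjusted p under 0.05 against 6.46%. This value lies close to the threshold, and it passed without glp-1 UVC 2007-1 (-0.80, adjusted p = 0.0127), without glp-1 untreated 2007-2 (-0.77, adjusted p = 0.0423) or without xpa-1 untreated 2007-2 (-0.80, adjusted p = 0.0427). It also passed with a replicate block (adjusted p = 0.0261), without the dimmest 40% of probe sets (0.0377) and with array weights (0.00030). The second pho-1 probe set gave -0.16 (SE 0.23, adjusted p = 0.954), was below 0 in 4 of 6 combinations of strain and year, and averaged 0.48 in 2007 and -0.80 in 2008. The 2 probe sets therefore had the same sign in 2008 and opposite signs in 2007. The difference between the pho-1 response of xpa-1 and that of N2 was -0.69 (SE 0.33, unadjusted p = 0.0480, limma adjusted p = 1.0) on the brighter probe set and 0.42 (SE 0.55, adjusted p = 1.0) on the second, and that between glp-1 and N2 was -0.01 (SE 0.33) and 0.06 (SE 0.55).

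The peptide transporter pept-1 separated by year. In 2008 the UVC difference was -1.09 in N2, -1.71 in xpa-1 and -1.39 in glp-1, and in 2007 it was -0.15, -0.25 and 0.29. In the 2008 arrays N2 moved from 9.07 and 8.55 to 8.04 and 7.41, xpa-1 from 9.75 and 8.77 to 8.23 and 6.87, and glp-1 from 9.88 and 8.94 to 8.42 and 7.61. In each strain both irradiated 2008 arrays lay below both untreated 2008 arrays. In all 3 strains and both treatments replicate 2008-2 was the lower array of its pair. Over both years the averaged effect was -0.72 (SE 0.24, limma adjusted p = 0.599), made up of -0.04 in 2007 and -1.40 in 2008, and pept-1 was not called with the 2008 arrays alone.

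The calcium channel gene itr-1 was at 8.61 and 8.99 in 2007 and 9.26 and 8.99 in 2008 in untreated xpa-1 animals and at 8.47 and 8.27 in 2007 and 8.31 and 8.13 in 2008 after UVC. The groups did not overlap, which was so, in the lower direction, for 1.04% of all genes. The difference was -0.67 (SE 0.19, limma adjusted p = 0.371), against -0.29 in N2 and -0.03 in glp-1. These values are from the brightest itr-1 probe set. On the dimmer ones the xpa-1 groups overlapped and differed by -0.26, -0.19 and 0.27. The elt-7 transcript differed by -0.77 in glp-1 (SE 0.30, limma adjusted p = 0.594), which was -1.79 in 2007 and 0.24 in 2008. In N2 it differed by 0.29, and the difference between the 2 responses was -1.06 (SE 0.43, limma adjusted p = 0.995). Of the remaining 5 genes, elt-2, ges-1, ifb-2, act-5 and vha-6, the UVC differences in the 3 strains ranged from -0.39 for elt-2 in xpa-1 to 0.38 for act-5 in xpa-1. None of the 9 passed the test of a different response in glp-1 or in xpa-1 than in N2 (limma, 0 of 9 in each, 1 of 9 in each at an unadjusted p under 0.05, against 4.09% and 2.1% of all genes at that level and 0% called).

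Loss of xpa-1 was compared with N2 to see what the repair mutation alters with and without added damage. In untreated animals 0 of the 9 genes were called, against 0.0117% of all genes, and 0 of 9 passed at an unadjusted p under 0.05, against 3.71% (limma). The differences ran from -0.59 for act-5 to 0.31 for elt-7, and no 95% interval reached beyond -1.22 or 0.95. After UVC 0 of the 9 were called, against 0.0175% of all genes, and 1 of 9 had an unadjusted p under 0.05, against 2.97%. That gene was itr-1, with levels of 8.47, 8.27, 8.31 and 8.13 in xpa-1 and 9.22, 8.49, 8.73 and 8.75 in N2. The 2 groups did not overlap, as for 0.724% of all genes in the lower direction. The difference was -0.50 (SE 0.19, limma adjusted p = 1.0), with -0.49 in 2007 and -0.52 in 2008. On the dimmer itr-1 probe sets the groups overlapped and differed by -0.05, -0.01 and 0.25.

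**Figure D4:**
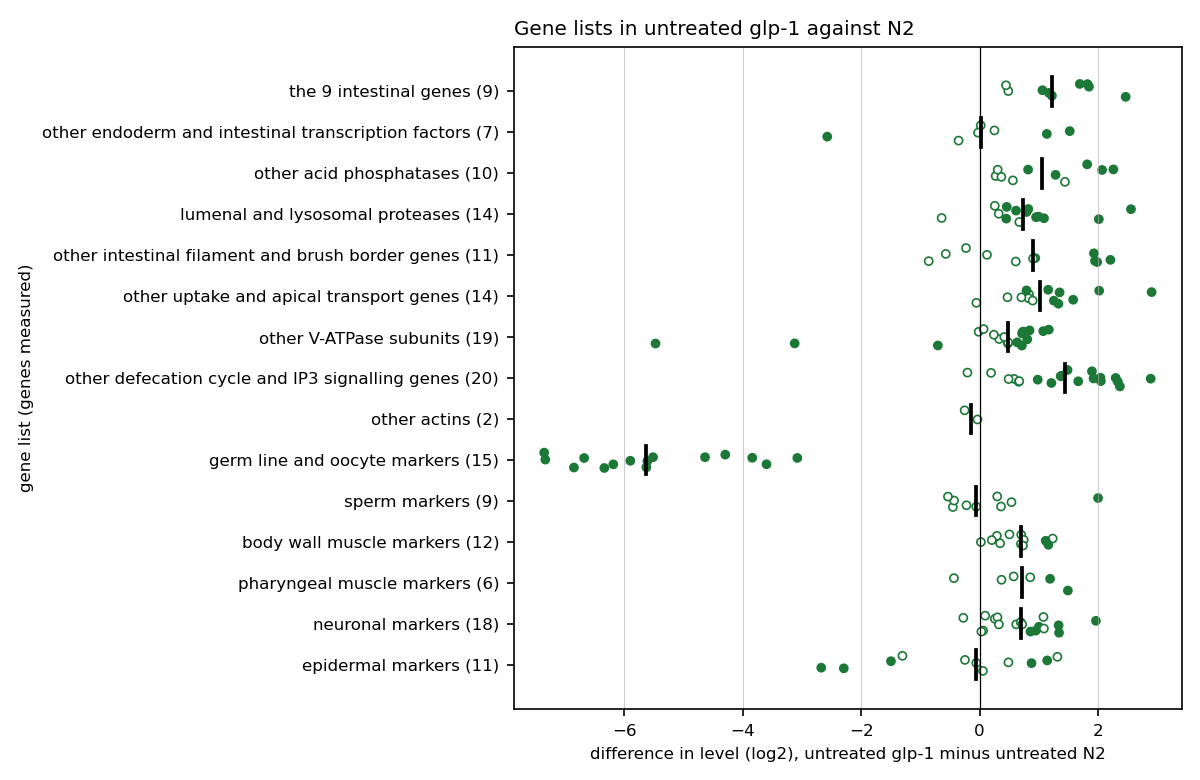
Difference in level (log2, untreated glp-1 minus untreated N2) of every measured gene in the intestinal lists and in the lists of markers of other tissues. Filled points have a limma adjusted p under 0.05, black bars are list medians, and the number of genes measured follows each name. The germ line markers lie between -7.36 and -3.08 and the median of the 9 intestinal genes at 1.22.

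Other genes of the same pathways were read in untreated glp-1 against N2 animals, where 21.1% of all genes were called higher and 18.6% lower (limma). Of 20 genes of the defecation cycle and of inositol trisphosphate signalling, 15 were higher and 0 lower, with a median difference of 1.44. They included nlp-40, the neuropeptide that the intestine releases to trigger expulsion (1.93), flr-1, a sodium channel of the intestine (2.30), and gtl-1, a cation channel of the intestine (1.67). Of 14 lumenal and lysosomal proteases, 10 were higher and 0 lower with a median of 0.73, among them the cathepsin B-like gene cpr-3 (2.02) and the aspartic protease genes asp-14 (2.56) and asp-4 (0.998). Of 14 other uptake and transport genes, 8 were higher and 0 lower with a median of 1.03, among them pgp-3 (2.91), an export pump, cdf-2 (2.02), a zinc transporter, and pept-3 (1.58), a relative of pept-1. Of 10 other acid phosphatases, 5 were higher and 0 lower with a median of 1.05, including pho-4 (2.26), pho-11 (2.07) and pho-14 (1.29). Of 11 other filament and brush border genes, 5 were higher and 0 lower with a median of 0.90, including the filament organiser ifo-1 (2.21), bbln-1 (1.99) and the kinase gene sma-5 (1.93).

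A pair of lists held genes of both directions. Of 19 other subunits of the proton pump, 9 were higher and 3 lower with a median of 0.48. The 3 smallest p-values belonged to vha-18, which was lower by -5.47, to vha-15, which was higher by 1.17, and to spe-5, a subunit needed in sperm development, which was lower by -3.12. Of 7 other transcription factors of the endoderm and intestine, 2 were higher, pqm-1 (1.52) and dve-1 (1.14), and 1 was lower, pal-1 (-2.57), a homeobox gene whose messenger RNA is supplied to the embryo by the mother. Their median was 0.02, and med-1, end-1, end-3 and skn-1 were not called. Neither of the 2 other actins was called. Every gene given a value by name for these lists, the 2 actins aside, had the same sign in 2007 and 2008.

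Markers of other tissues were read in the same comparison, beside 21.1% of all genes called higher and 18.6% called lower. All 15 germ line and oocyte markers were lower, with a median of -5.63, including deps-1 (-6.68), htp-3 (-5.52) and egg-1 (-6.34). Their summed normalised intensity ran from 50030 to 73231 in untreated N2, from 448 to 1413 in untreated glp-1 and from 1470 to 3578 in irradiated glp-1 animals. The summed intensity of the 9 intestinal genes ran from 5736 to 8140 in untreated N2, from 15232 to 16395 in untreated glp-1 and from 13744 to 14988 in irradiated glp-1 animals. Neuronal markers had a median of 0.71, with 6 of 18 higher and 0 lower, led by unc-64 (1.97), sbt-1 (1.34) and egl-21 (1.34), and a sum of 8779 to 12339 in untreated N2 and 18094 to 19784 in untreated glp-1. Body wall muscle markers had a median of 0.70, with 2 of 12 higher, tnt-2 (1.16) and unc-27 (1.12), and 0 lower. Pharyngeal muscle markers had a median of 0.72, with 2 of 6 higher, tni-4 (1.19) and myo-5 (1.49), and 0 lower. Epidermal markers had a median of -0.05, with 2 of 11 higher and 3 lower, among them nhr-23 (-2.67), elt-3 (1.14) and che-14 (-1.50). Sperm markers had a median of -0.06, with 1 of 9 higher, ssp-10 (2.00), and 0 lower. They were dim in both strains, with a sum of 247 to 1230 in untreated N2 and 608 to 1234 in untreated glp-1. A lower level of these markers could therefore hardly show. Levels are relative within an array, and the part that the missing germ line RNA has in the higher level of the 9 intestinal genes was not tested.

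In irradiated animals the intestinal lists gave similar counts. The defecation list had 14 of 20 higher, the proteases 10 of 14, the uptake genes 8 of 14, the acid phosphatases 6 of 10 and the filament genes 5 of 11, each with 0 lower, against 21.9% of all genes called higher. The proton pump subunits had 10 of 19 higher and 3 lower, and all 15 germ line markers were again lower, against 19.7% of all genes called lower. In the comparisons of irradiated with untreated animals and of xpa-1 with N2, 0 genes of any of these lists were called. The share of all genes called there was at most 0.0409%. Germ line markers had a median UVC difference of 0.88 in glp-1, with a range of -0.03 to 2.11, and of 0.08 in N2.

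After the year mean was subtracted, the genes whose levels ran most like elt-2 over the 24 arrays, among 5690 genes with a mean level of at least 8, were C18C4.7 (Pearson r = 0.98), cccp-1 (r = 0.97) and dlk-1 (r = 0.97). The closest genes to the others were tyr-4 for elt-7 (r = 0.89), twk-5 for ges-1 (r = 0.99), F02D8.4 for pho-1 (r = 0.91), haf-4 for itr-1 (r = 0.98), lron-3 for ifb-2 (r = 0.95), cpn-3 for act-5 (r = 0.86), R193.2 for pept-1 (r = 0.78) and hrg-11.4 for vha-6 (r = 0.96). These coefficients describe the same 24 arrays, in which the 8 glp-1 arrays stand apart from the other 16, and carry no test.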

How the data were processed

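The values are intensities that the authors deposited as 1 table of 22548 probe sets and 24 arrays. They are linear, 18.6% lie below 0, and how they were summarised, background-corrected and scaled was not given in the sources used here. Per the labels, labelled material came from 500 pg of RNA (TargetAmp kit, 2007) or 100 ng (Affymetrix kit, 2008). Arrays were quantile normalised because their log2 medians spanned 2.62, values below 0 were set to 0 (15.5% were at or below 0) and log2(value + 32) was taken. A mean per group plus a year term was fitted with limma (3.58.1, R 4.3.3) on all arrays and probe sets, with 17 residual and 2.24 prior degrees of freedom, two-sided p-values and Benjamini-Hochberg adjustment. The number of arrays limits the precision.

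Probe sets were named from the supplied annotation (20766 with 1 gene, 887 with several, 895 with none; 0 symbols changed). A gene is its brightest probe set. From each list, the 3 called genes with the smallest p in untreated glp-1 against N2 are named, and the genes closest in pattern by correlation. The 9 genes and all lists were chosen with earlier results of these data known. Of the listed genes, 12 had no probe set of their own. The fit was tested on simulated data.

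Replicate numbers were checked for pairing by correlating, within a year, the differences between replicates 1 and 2 of the groups compared. Both years exceeded 0.1 for UVC in glp-1 (0.11 and 0.40) and for irradiated xpa-1 against N2 (0.19 and 0.31), where a replicate block called 0 and 0 of the 9 genes. No other comparison exceeded it in both years. In 2008 alone it was also exceeded for UVC in N2 (0.26), UVC in xpa-1 (0.30), untreated xpa-1 against N2 (0.23) and untreated glp-1 against N2 (0.26). The 2007 values of these were 0.07, -0.15, -0.09 and -0.03. For UVC in xpa-1 a replicate block called pho-1 (limma adjusted p = 0.0480). Pairing in 2008 is therefore not excluded for these comparisons. No sequences are given and the promoter motif search foreseen in the design was not run.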

Additional observations from a re-analysis of the deposited data

Results flagged for a closer look

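In 2 of 54 sets of 4 arrays, each set being 1 gene in 1 group, a single array stood apart from its group by Dixon's ratio at its 95% critical value. Chance gives about 1 in 20 such sets. The ifb-2 level of xpa-1 untreated 2007-1 was 8.07, and the next lowest array of that group was at 9.94. The act-5 level of glp-1 UVC 2007-1 was 11.15, and the next lowest was at 11.72. Both are arrays of 2007.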

How the results depend on the processing

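Each result was recomputed under 15 other settings and with each of the 24 arrays left out. Of 3861 recomputed differences of the 9 genes, 3800 kept their side of the threshold, 44 lost a call, 16 gained one and 1 reversed, and 165 that were never called changed sign. The reversed one was elt-7 in irradiated glp-1 against N2, at -0.060 with the 2007 arrays alone.

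Untreated glp-1 against N2 gave 7 genes called in the main fit, 4 on the values as deposited, and 6 to 7 with an array left out. After UVC it gave 7 in the main fit, 3 with 2007 alone, 2 as deposited, and 5 to 8 with an array left out. Untreated glp-1 against xpa-1 gave 8, 5 with 2007 alone, and 8 with any array left out. The calls lost with 2007 alone were pho-1 (limma adjusted p = 0.170), ifb-2 (0.111) and act-5 (0.211). Those lost as deposited were elt-7 and pho-1. UVC in xpa-1 gave 0, then 1 with a replicate block (pho-1, adjusted p = 0.0480), 3 with array weights (pho-1, itr-1 and pept-1), and 0 to 1 with an array left out. The averaged UVC effect gave 0, then 1 with a replicate block (pho-1, adjusted p = 0.0261), 1 without the dimmest 40%, 3 with array weights, and 0 to 1 with an array left out. The replicate block also ended the elt-7 call in irradiated glp-1 against N2 (adjusted p = 0.0605) and changed no other call. For untreated glp-1 and N2 the correlation of the pairing check was -0.03 in 2007 and 0.26 in 2008. Why these calls changed was not tested.

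Another scaling moved the size. The median difference of the 9 genes in untreated glp-1 against N2 was 0.71 as deposited (all genes -0.08), 1.12 after median centring (all genes 0.32), and 1.86 after scaling to the 75th percentile (all genes 0.17), where act-5 was also called (1.27, adjusted p = 0.0104). In irradiated animals the median was 0.48 as deposited, 0.87 after median centring and 1.68 after scaling to the 75th percentile. Median centring ended the pho-1 and ifb-2 calls after UVC (adjusted p = 0.0993 and 0.174). The number of probe sets called was 8511 for untreated glp-1 against N2 (4296 with 2007 alone to 11552 with array weights), 8986 after UVC (4525 to 11841) and 8537 against xpa-1 (4280 to 11143). It was 7 for UVC in xpa-1 (0 to 262), 0 for UVC in N2 (0 to 25), 0 for UVC in glp-1 (0 to 159), 7 for the averaged effect (0 to 502), 3 for irradiated xpa-1 against N2 (0 to 33) and 2 untreated (0 to 4). The 2007 arrays are dimmer than those of 2008. With 2007 alone, with 12 arrays in the fit, untreated glp-1 against N2 lost pho-1 (adjusted p = 0.105) and ifb-2 (0.303).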
